A study of Mus musculus with 6 samples.

Results

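Resting natural regulatory T (nTreg) cells with and without MondoA were compared gene by gene, with 1 RNA sequencing library of each genotype. The wild-type library came from MondoA+/+Foxp3Cre mice and the knockout library from MondoAfl/flFoxp3Cre mice, all C57BL/6 and 8 weeks old. These are 2 of the 6 libraries of the study. The other 4 hold the same genotypes in nTreg cells activated for 48 h (5 µg/ml anti-CD3, 2 µg/ml anti-CD28, 100 U/ml IL-2) and in induced Treg (iTreg) cells polarized for 4 days. Resting cells were sorted from spleen and lymph nodes as CD4+CD25hiYFP+ cells and received no stimulation. The iTreg cultures started from naive CD4+ cells that were YFP-. Both genotypes carry Foxp3-Cre, a recombinase driven by the Foxp3 gene, and the controls carry the recombinase without the floxed gene. The labels leave out which exons of the gene were floxed, how many mice were used or whether they were pooled.

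Of 17759 genes listed in any library, 10324 had at least 50 estimated counts in the higher of the resting libraries and were compared. Values are given as normalised CPM (counts scaled to a common library total and between libraries) in wild type and then in knockout, and as the log2 ratio of knockout over wild type. With 1 library per genotype no p-value can be given. The 95% interval beside a ratio covers counting error only, so nothing here has a replicate check, and differences of genotype, of mice and of preparation cannot be told apart. A gene is called higher or lower where it differs at least 2-fold.

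MondoA, encoded by Mlxip, is a basic helix-loop-helix leucine zipper transcription factor that pairs with MLX and moves to the nucleus when glucose phosphates accumulate in the cell. It binds carbohydrate response elements, which are paired E-box-like sites, and its best known targets are the alpha-arrestins Txnip and Arrdc4, which limit glucose uptake. Natural Treg cells are CD4+ T cells that express Foxp3 and suppress immune responses, and at rest they range from naive-like central cells to effector cells primed for tissues.

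The targeted gene was the first check of the labels. Mlxip had 142 CPM in the wild-type and 108 in the knockout library, from 1431 and 1130 counts, a log2 ratio of -0.41 (95% interval -0.52 to -0.29). The deposited FPKM values were 20.12 and 15.37. Mlxip was thus lower in the knockout library but well short of 2-fold, and reads from outside the floxed exons may remain in its count. The gene differed more in the libraries of the other states, at 152 and 87.1 CPM in stimulated cells (log2 ratio -0.80) and 167 and 70.7 in iTreg cells (-1.24). Whether the states differ could not be tested.

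Both alpha-arrestins targeted by MondoA were lower. Txnip, which also binds thioredoxin, had 1499 CPM in the wild-type and 405 in the knockout library, 3.70-fold lower (log2 ratio -1.89, -1.94 to -1.84). Arrdc4 stood at 15.8 and 2.57 CPM, 6.16-fold lower (-2.62, -3.27 to -2.03). The predicted gene Gm15441 lies antisense to Txnip and had 2245 and 657 counts (log2 ratio -1.84). Without known strandedness its reads and those of Txnip cannot be told apart. The other alpha-arrestins did not follow: of 4 in the list 3 were compared and none was past 2-fold, with Arrdc1 at 0.31, Arrdc2 at 0.14 and Arrdc3 at -0.37 on the log2 scale.

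The promoter of Txnip holds the letters of a pair of E-box-like sites, and that of Arrdc4 the letters of a single E-box. They are shown here because the factor removed is known to bind paired sites. The sequences are from RefSeq on GRCm38.p6, written 5′ to 3′ on the strand of the gene, with the match in capitals, at chr3:96557852-96557908 (+) for Txnip and chr7:68749406-68749451 (-) for Arrdc4.
Txnip: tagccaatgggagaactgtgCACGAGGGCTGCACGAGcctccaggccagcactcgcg
Arrdc4: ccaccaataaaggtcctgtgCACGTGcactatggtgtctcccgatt
Windows from 250 bases before to 50 bases after each gene start were searched on both strands. The capitals in Txnip match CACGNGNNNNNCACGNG, a pair of such sites 5 bases apart, which 16 of the 32851 RefSeq promoters hold (0.0487%). The match begins 85 bases before the gene start. The capitals in Arrdc4 match the E-box CACGTG, held by 7.15% of those promoters and by 12.2% of those of the genes compared. Neither this pair nor its inverted form was found in the Arrdc4 window. These matches describe letters and are not evidence of binding.

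The partners and antagonists of MondoA in the MLX and MAX network were measured from a list of 13. Of these 10 were compared and 0 passed 2-fold, beside 3.01% of all genes compared. Mlx, the obligate partner, was at 38.4 and 36.4 CPM (log2 ratio -0.08, -0.28 to 0.13). Max, the partner of MYC, was at -0.05, its antagonist partners Mnt and Mxi1 at 0.07 and 0.14, and the large MAX partner Mga at -0.22. Myc itself, a driver of growth and metabolism, was at 183 and 98.1 CPM, a log2 ratio of -0.90 (-1.01 to -0.79). Mxd1, which opposes MYC, was at -0.63 and Mxd4 at 0.53. Mlxipl, the paralog ChREBP, had 1 count in each library, and Mycn had 2 and 0.

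Across all 10324 genes the resting libraries were close. The median log2 ratio was 0.006, and 90.3% of genes lay within 1.5-fold. Of these genes 153 were at least 2-fold higher in knockout (1.48%) and 158 at least 2-fold lower (1.53%). Past 2-fold in either direction were 3.01%, the share to hold beside the count of every list in this report. At that share a short list would often have no gene past 2-fold, so a count of 0 says little about it. Of the higher genes 50, and of the lower genes 74, had an interval wholly beyond 2-fold. Among the 2552 genes with at least 1000 counts the balance was uneven, with 10 higher and 36 lower.

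**Figure D1:**
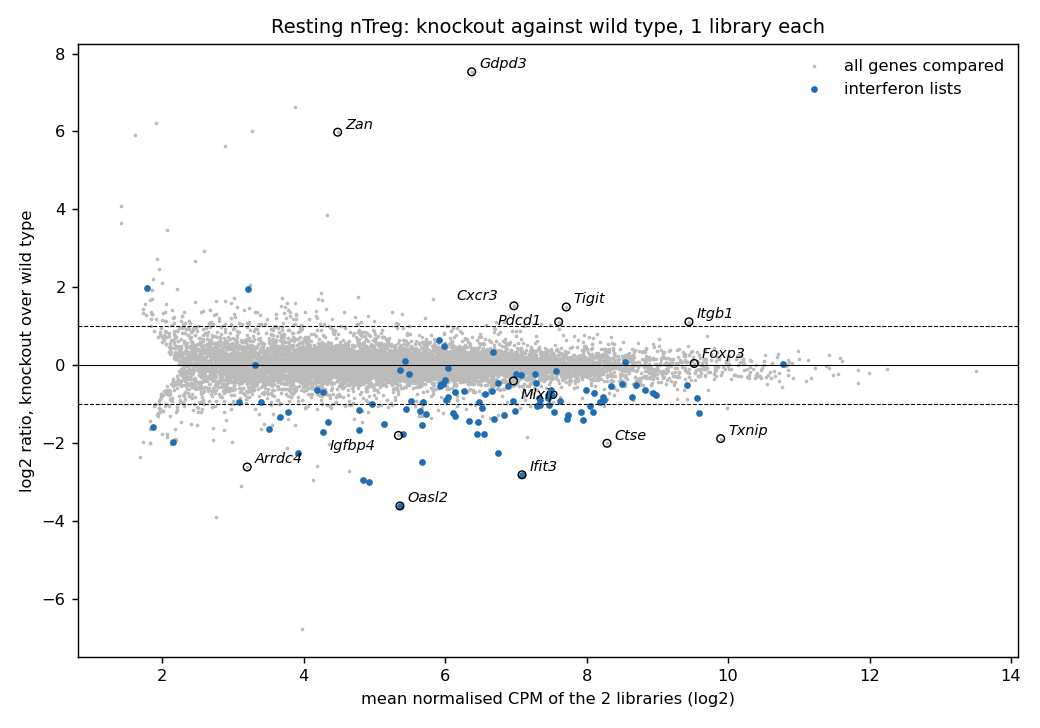
Log2 ratio of knockout over wild type (vertical axis) against the mean normalised CPM of the pair of resting libraries (horizontal axis, log2). Each of the 10324 genes compared is a point, members of the 5 interferon lists are blue and dashed lines mark 2-fold. Most interferon-list genes lie under 0 over the whole range of levels, beside Txnip and Ctse, while Foxp3 lies at 0.04.

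Among the lower genes were many interferon-stimulated genes. These encode antiviral effectors and are switched on through interferon-stimulated response elements in their promoters. Of 111 genes in 5 lists 103 were compared, of which 44 were lower, 2 were higher and 57 were not past 2-fold, against 1.53% lower and 1.48% higher of all genes. The log2 ratio was negative for 94 members and positive for 9, with a median of -0.92 beside 0.006 over all genes. Summed over the lists, the level was 20709 CPM in wild type and 12400 in knockout. These lists held 27.8% of the 158 lower genes, beside 103 of all 10324 genes compared. They held 23 of the 36 lower genes with at least 1000 counts (63.9%), and their share of all 2552 such genes is not given here. The lists were chosen with earlier results of these data known. In bulk RNA, fewer cells of a type and less RNA per cell cannot be told apart, so these values do not say whether all cells or some cells were lower.

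Oligoadenylate synthetases and IFIT proteins sense or bind viral RNA, and their list also holds other antiviral effectors. This list had the lowest median of the 5. Of 19 compared, 12 were lower and all 19 had a negative ratio, with a median of -1.46. Oasl2 had 75.9 CPM in the wild-type and 6.19 in the knockout library, 12.3-fold lower (log2 ratio -3.62, -4.01 to -3.25). Oas2, which makes the second messenger that activates RNase L, stood at 53.8 and 6.66 CPM (-3.01). Ifit3 stood at 238 and 33.7 CPM (-2.82, -2.99 to -2.66), and its near copy Ifit3b at 50.8 and 6.57 (-2.95). Reads of such close copies could have been split between them. Ifit1, which binds viral RNA caps, stood at 145 and 42.4 CPM and the ubiquitin-like modifier Isg15 at 65.4 and 19.0, with log2 ratios of -1.78 each. The GTPase Mx1 (-1.73) and viperin, encoded by Rsad2 (-1.68), were also lower. At the other end Eif2ak2, the RNA-activated kinase PKR, was at -0.23 and Oas1c at -0.12.

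**Figure D2:**
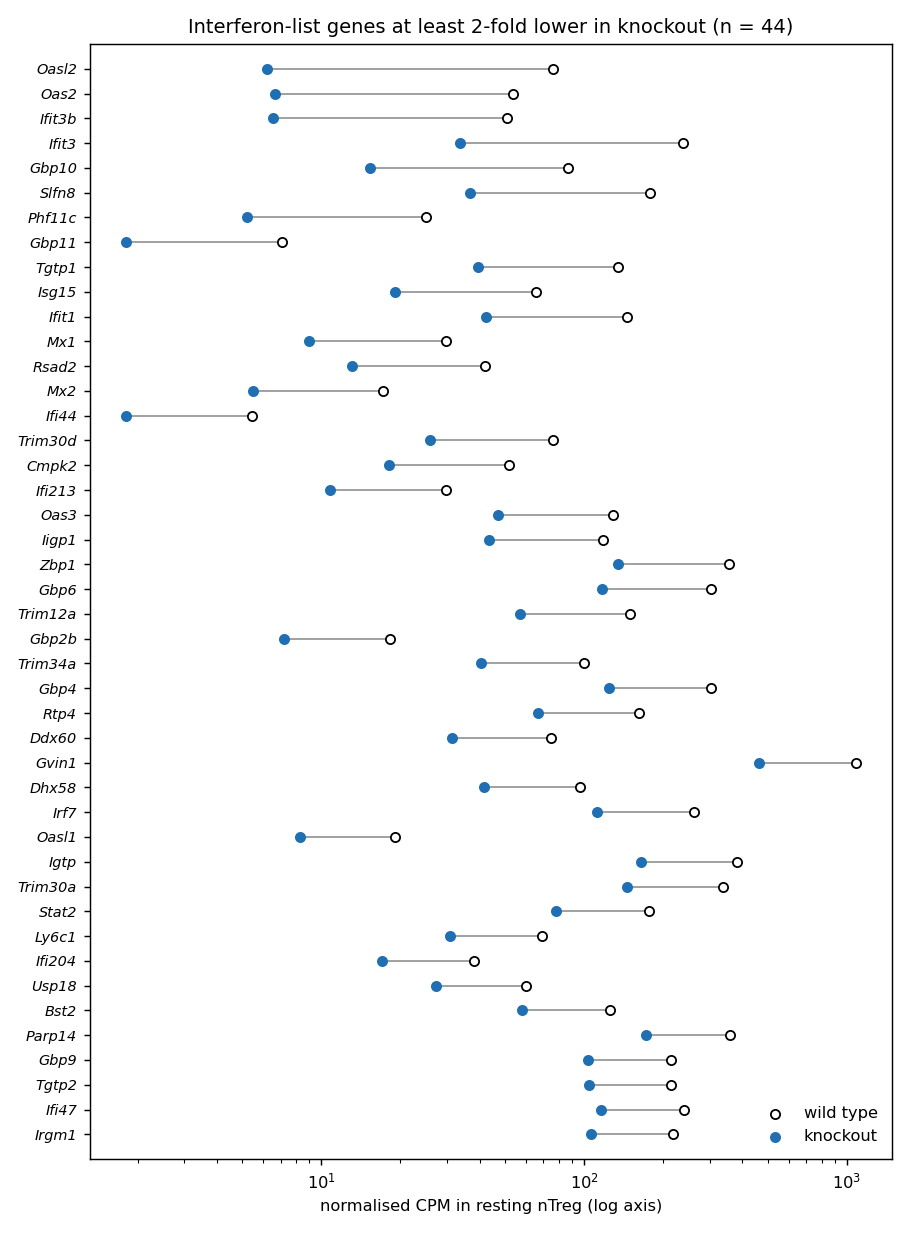
Normalised CPM (horizontal, log axis) in the wild-type (open) and knockout (filled) resting library for the 44 interferon-list genes that were at least 2-fold lower in knockout, ordered by ratio. Grey lines join the values of a gene, and Oasl2 at the top goes from 75.9 to 6.19 CPM.

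Interferon-inducible GTPases, which attack vacuoles that hold pathogens, gave 13 lower of 19 compared, again with 19 negative ratios (median -1.05). Gbp10, a guanylate-binding protein, had 86.5 CPM in the wild-type and 15.3 in the knockout library (log2 ratio -2.50). The immunity-related GTPases Tgtp1 and Iigp1 stood at 135 and 39.5 CPM (-1.78) and at 118 and 43.6 CPM (-1.44). Gvin1, a very large inducible GTPase, stood at 1081 and 461 CPM, 2.35-fold lower. Members short of 2-fold ran from Gbp5 at -0.95 to Gbp3 at -0.54.

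DNA sensors of the IFI200 family showed 2 lower of 8 compared, Ifi213 (300 and 113 counts) and Ifi204 (383 and 179 counts), with a median of -0.93. The cytosolic DNA sensor Aim2 was at -0.07. TRIM proteins, ubiquitin ligases of innate immunity, went both ways, with 4 lower and 2 higher of 13 (median -0.55). Trim30d and Trim12a were lower by log2 ratios of -1.55 and -1.38, and Trim34a and Trim30a by -1.30 and -1.20. Trim16 stood at 3.78 and 14.7 CPM (1.95, 1.43 to 2.51) and Trim34b at 1.39 and 5.52 CPM (1.99). Trim34a and Trim34b are close copies with opposite signs, so the level of each is uncertain.

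The remaining interferon-stimulated genes gave 13 lower and 0 higher of 45, with a median of -0.81. Slfn8, of the schlafen family, had 178 CPM in the wild-type and 36.8 in the knockout library (log2 ratio -2.27). Zbp1, a sensor of Z-form nucleic acid, stood at 357 and 135 CPM (-1.41). Among transcription factors of the response, Irf7, which amplifies type I interferon, was lower at 261 and 112 CPM (-1.21), as was Stat2 at 177 and 77.8 CPM (-1.18). Irf9 (-0.77) and Irf1 (-0.73) did not reach 2-fold. Some members did not share the direction, among them Ly6e at 0.02, Xaf1 at 0.33 and Ifi27 at 0.63.

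The receptors and kinases upstream, a list added after the values were seen, had 0 of 9 past 2-fold, beside 3.01% of all genes. Their median was -0.07. The type I receptor chains Ifnar1 and Ifnar2 were at -0.07 and 0.29, and the kinases Jak1 and Tyk2 at 0.06 and 0.29. The interferon gamma receptor chains Ifngr1 and Ifngr2 were at 0.08 and -0.56, and Socs3, a feedback inhibitor of cytokine signalling, at -0.85. Genes of MHC class I antigen presentation and the immunoproteasome, which interferon also induces, had 0 of 19 past 2-fold, 17 negative ratios and a median of -0.27. H2-T24 came nearest at -0.99, while the classical genes H2-K1 and H2-D1 were at -0.07 and 0.09. H2-T3, a nonclassical class I gene that is in none of the lists, was higher, with 12 and 69 counts (2.46, 1.56 to 3.48).

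Promoters of lower interferon genes are shown because they carry the core of the interferon-stimulated response element, GAAANNGAAA, on one strand or the other. They are RefSeq sequences on GRCm38.p6, 5′ to 3′ on the strand of the gene with each match in capitals, where TTTC marks a match on the opposite strand. The windows are chr19:34583353-34583436 (+) for Ifit3, chr19:34640765-34640833 (+) for Ifit1, chr4:156200855-156200916 (-) for Isg15 and chr5:120777705-120777754 (-) for Oas3.
Ifit3: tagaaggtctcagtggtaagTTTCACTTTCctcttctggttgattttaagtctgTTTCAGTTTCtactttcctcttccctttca
Ifit1: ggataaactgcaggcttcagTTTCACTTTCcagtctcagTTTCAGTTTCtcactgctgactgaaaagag
Isg15: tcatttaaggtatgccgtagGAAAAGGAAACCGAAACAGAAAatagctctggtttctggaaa
Oas3: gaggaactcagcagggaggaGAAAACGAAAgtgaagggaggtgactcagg
Ifit3 and Ifit1 hold 2 matches each and Isg15 holds 3 that overlap. This core is in 3.44% of all 32851 promoters, and in 3.98% of those of the genes compared. Among the 124 lower genes with a promoter 27 hold it (21.8%), and among the 116 higher genes 3 do (2.59%). Among lower genes outside the interferon lists it is in 7 of 96 (7.29%). Within the interferon lists it is in 20 of 28 lower genes (71.4%) and in 23 of 47 genes not past 2-fold (48.9%). The E-box CACGTG is in 0 of these 28 and in 1 of the 47, beside 12.2% of the genes compared, 7.26% of all lower and 6.9% of all higher genes, and the paired sites are in none of the 28 or the 47. No match says only that the letters are not in this window.

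The interferon lists were also read in the other pairs, which share no library with the resting pair. In stimulated cells 85 members were compared, with 5 lower, 3 higher and a median of -0.18, where 0.552% of all genes were lower and 0.562% higher. In iTreg cells 88 were compared, with 14 lower, 3 higher and a median of -0.14, where 5.38% of all genes were lower and 2.83% higher. The summed levels were 10953 CPM in wild-type and 10486 in knockout stimulated cells, and 17409 and 16737 in iTreg cells. For 75 of the 103 members (72.8%) the wild-type level was highest in the resting library, as it was for 41.9% of all genes compared. Ifit3, at 238 CPM in wild-type resting cells, was at 2.41 in wild-type stimulated and 7.85 in wild-type iTreg cells. Oasl2 was lower in all 3 pairs, though from 3.62 and 8.67 CPM in wild-type stimulated and iTreg cells. The states differ in more than stimulation: Xist was at 710 and 499 CPM in the wild-type and knockout resting libraries and at most at 1.12 CPM in the others. The Y-linked genes Ddx3y, Eif2s3y, Kdm5d and Uty had 0 counts in both resting libraries and 15.6 to 115 CPM in the other 4. The part of the sex of the mice in the differences between states was not tested, and the resting pair was matched in it.

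**Figure D3:**
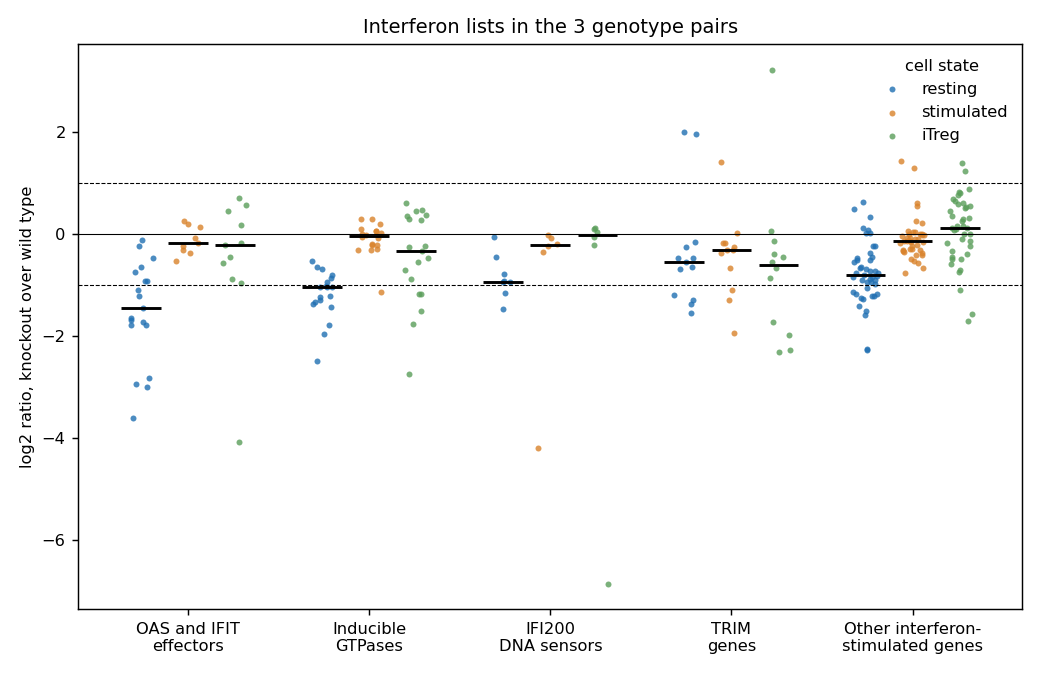
Log2 ratio of knockout over wild type (vertical axis) for the members of the 5 interferon lists, in resting (blue), stimulated (orange) and iTreg (green) cells. Points are genes with at least 50 counts in the higher library of the pair, black bars are medians and dashed lines mark 2-fold. The resting medians lie between -1.46 and -0.55.

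Some of the called genes of the resting pair were called the same way in another pair, and others had the opposite sign there. Of 9646 genes compared in both nTreg pairs, 11 were lower in both, which is 10.1% of the 109 resting and 22.9% of the 48 stimulated genes, where 0.498% of all these genes were lower in stimulated cells. The sign was opposite in stimulated cells for 43 of the 109. In both nTreg pairs 12 were higher, 14.6% of 82 and 31.6% of 38, beside 0.394% of all genes higher in stimulated cells, and 27 of the 82 had the opposite sign. Against iTreg cells (9563 genes), 30 were lower in both, 25.2% of 119 resting and 6.33% of 474 iTreg genes, beside 4.96% of all genes lower in iTreg cells, and 36 of the 119 had the opposite sign. In that comparison 28 were higher in both, 40.0% of 70 and 13.4% of 209, beside 2.19% of all genes higher in iTreg cells, and 20 of the 70 had the opposite sign.

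The identity of the cells was checked with Treg genes. Foxp3, the lineage factor, had 725 CPM in the wild-type and 744 in the knockout library (log2 ratio 0.04, -0.01 to 0.08). The inhibitory receptor Ctla4 (-0.04) and the transcription factor Ikzf2, which encodes Helios (0.13), also differed little. Of 26 core Treg genes compared, 3 were higher and 1 lower, with a median of 0.05, beside 1.48% higher and 1.53% lower of all genes. The 3 higher genes encode inhibitory molecules. Tigit stood at 110 and 309 CPM, 2.81-fold higher (1.49, 1.39 to 1.59), Pdcd1, which encodes PD-1, at 123 and 266 CPM (1.11), and Fgl2, a secreted suppressor of dendritic cells, at 15.8 and 37.0 CPM (1.23). Lag3, another inhibitory receptor, was at 0.74, and Nrp1, a surface protein of thymus-derived Treg cells, at 0.80. The lower gene was the receptor Gpr83, at 152 and 62.6 CPM (-1.28).

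Of the IL-2 receptor chains on which Treg cells depend, Il2ra and Il2rb were lower without reaching 2-fold. Il2ra, which encodes CD25, one of the proteins used for the sort, had 808 CPM in the wild-type and 439 in the knockout library (log2 ratio -0.88, -0.93 to -0.83), and Il2rb at 1026 and 657 CPM (-0.64). In a list of the IL-2 response that was added after the values were seen, 1 of 12 was lower and 0 were higher. That compares with 1.53% lower and 1.48% higher of all genes. In this list 9 ratios were negative and 3 positive, with a median of -0.47. The lower gene of the list was Lta, the cytokine lymphotoxin alpha, at 72.7 and 29.4 CPM (-1.31). The signal transducers Stat5a and Stat5b were at 0.16 and 0.28. In stimulated and iTreg cells Il2ra was at -0.00 and -0.08.

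Genes of effector and tissue Treg cells leaned upward and genes of naive and central cells downward. Of 25 effector genes 3 were higher and 2 lower, beside 1.48% higher and 1.53% lower of all genes. In this list 20 had a positive ratio, and the median was 0.34. Cxcr3, a chemokine receptor for sites of type 1 inflammation, had 65.0 CPM in the wild-type and 186 in the knockout library (log2 ratio 1.52, 1.39 to 1.65). S100a4, a calcium-binding protein of motile cells, and Klrg1, a receptor of terminal effector cells, were higher by 1.20 and 1.14. The 2 lower genes were the proteases Ctse, or cathepsin E, at 501 and 124 CPM (4.04-fold lower), and Gzmb, or granzyme B, at 39.5 and 17.3 CPM (-1.19). Ctse was lower in the other pairs as well, at -3.35 in stimulated and -3.61 in iTreg cells.

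Of 18 naive and central genes 0 were higher and 2 were lower, beside 1.48% higher and 1.53% lower of all genes. A negative ratio was found for 14, with a median of -0.43. Igfbp4, which binds insulin-like growth factors, had 632 and 189 counts (log2 ratio -1.81) and Als2cl at 197 and 95.6 CPM (-1.04). The genome organizer Satb1 had 526 and 283 CPM (-0.89). The transcription factor Bach2, which restrains effector differentiation, was at -0.73 and the homing receptor Ccr7 at -0.67. Tcf7 (0.05) and Klf2 (-0.16), 2 other regulators of resting T cells, did not share this.

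Follicular genes gave 3 higher of 10 and 0 lower (median 0.51), beside 1.48% higher and 1.53% lower of all genes. The higher ones were Pdcd1, the transcription regulator Tox2 (1.26) and the secreted factor Angptl2 (137 and 287 counts). In the type 1 helper list Il12rb2, an IL-12 receptor chain, was lower at 5.37 and 1.05 CPM (-2.36), opposite to Cxcr3, and the median of 14 genes was 0.17. Among chemokines and their receptors, Ccl22, which attracts CCR4-bearing cells, stood at 131 and 53.1 CPM (-1.30) and Cxcr4, a receptor for bone marrow and lymphoid homing, at 117 and 240 CPM (1.04). Of 15 genes of the T cell receptor response, Myb, a transcription factor of lymphoid progenitors and effector Treg cells, was lower at 80.4 and 31.4 CPM (-1.36). The others were not past 2-fold, with a median of -0.05. In the adhesion list, added after the values were seen, 2 of 13 were higher, beside 1.48% of all genes. The higher adhesion genes were Itgb1, the beta chain of the fibronectin and collagen receptors, at 441 and 954 CPM (2.16-fold higher), and Itgb5 at 3.68 and 15.2 CPM (2.05). The median of this list was 0.24.

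Genes of energy metabolism were close between the genotypes. Of 24 genes of glucose uptake and glycolysis 0 were past 2-fold, beside 3.01% of all genes, and the median was 0.02. The transporters Slc2a1 and Slc2a3 were at 0.02 and 0.03 and Hk2, a hexokinase, at -0.92 from 96 and 53 counts. The pentose phosphate pathway (7 genes, 0.14), the citric acid cycle (21, -0.05) and the respiratory chain (26, 0.01) had no gene past 2-fold either. In fatty acid oxidation 12 of 15 ratios were positive (median 0.18), and Cpt1a, the gate of fatty acid entry into mitochondria, was at 95.1 and 161 CPM (0.76). Lipid synthesis had 1 of 23 past 2-fold, Acacb, an acetyl-CoA carboxylase at the mitochondrial surface, at 1.49 and 9.52 CPM (2.67, 1.88 to 3.56). The median of that list was -0.18. ATF4 targets (16 genes, -0.05), HIF targets (12, 0.09), proteasome subunits (19, 0.02) and cell cycle genes (16, -0.08) had 0 past 2-fold.

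**Figure D4:**
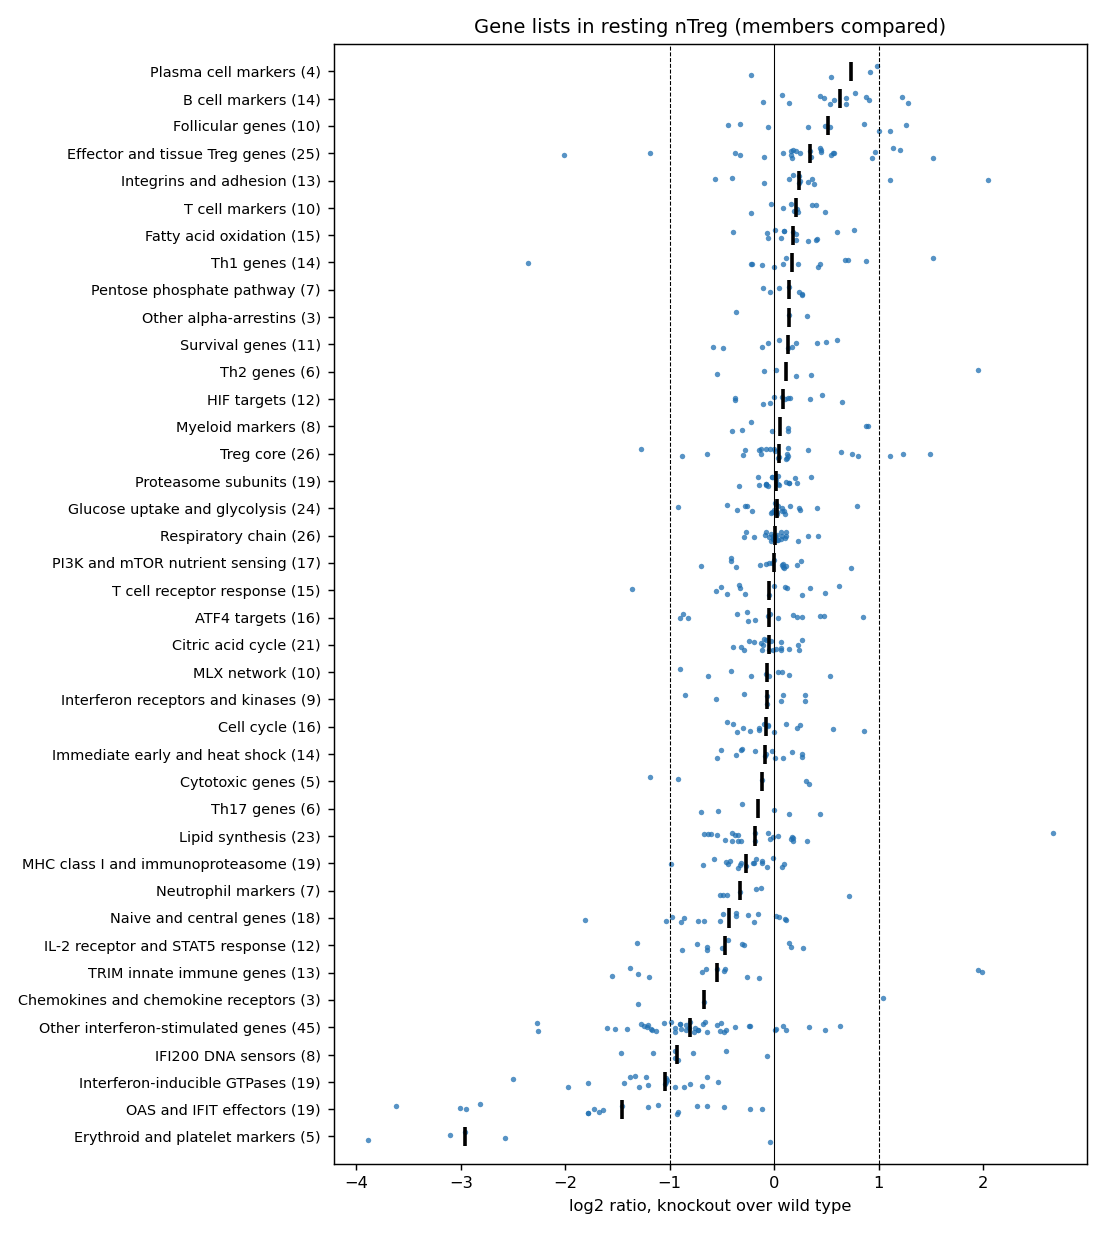
Log2 ratio of knockout over wild type (horizontal axis) in resting nTreg for the members of each gene list with at least 3 genes compared. The number compared is in brackets, black bars are medians and lists are ordered by median. The interferon lists fall to the left with medians of -0.55 to -1.46. Erythroid and platelet markers (-2.96) and chemokines with their receptors (-0.67) also fall there, and the metabolic lists lie near 0.

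Outside the lists the largest increase was Gdpd3, a lysophospholipase D, with 0.896 CPM in the wild-type and 165 in the knockout library (log2 ratio 7.53, 6.6 to 8.66). It was higher in the other pairs too, at 6.18 in stimulated and 5.83 in iTreg cells. Zan, which encodes the sperm protein zonadhesin, stood at 0.697 and 43.9 CPM (5.98) and Msi1, an RNA-binding protein, had 1 and 63 counts. The schlafen gene Slfn9 (1.75) and the transcription factor Cebpa (1.69) followed at lower folds. Slfn8, of the same family as Slfn9, had the opposite sign (-2.27). Whether reads were split between these schlafen genes was not tested, so the level of each is uncertain. Among higher genes with at least 1000 counts were the proteoglycan Spock2 (1.11), the membrane protein Mmd (1.09), the endocytic adaptor Hip1r (1.06) and the replication helicase subunit Mcm6 (1.02). Among named genes outside the lists the largest decreases were Slc15a2, a transporter of small peptides (43.3 and 6.57 CPM, -2.72), the adhesion molecule Jaml (33.0 and 8.09 CPM, -2.03) and the lipid flippase Atp8b4 (-1.97).

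Several apparent increases were of near-identical copies. Hmga1b had 26 and 393 counts while Hmga1, a chromatin protein, had 1697 and 1101, and their sum differed by a log2 ratio of -0.27. Eno1b had 0 and 202 counts while Eno1, the glycolytic enolase, had 5440 and 4757, with a sum at -0.20. Atp6v0c-ps2 had 0 and 156 counts against 1083 and 1143 for Atp6v0c. The counting could have split reads between such copies and their parents, and the level of each copy is uncertain.

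Position relative to the targeted gene was described with the gene order of GRCm38, within 250 gene positions of Mlxip on chromosome 5. Of 183 genes compared there 3 were higher and 6 lower (4.92% past 2-fold). Past 2-fold were 3.75% of the 480 genes on the rest of chromosome 5 and 2.94% of the 9661 on other chromosomes. Of the genes past 2-fold Hip1r and Ccdc62 lie nearest, at 18 and 17 positions. Msi1, named above among the increases, is also in the window, at position -204 from Mlxip. The 7 interferon-list genes in this window include 4 that were lower, Oasl2, Oasl1, Oas2 and Oas3. On the rest of chromosome 5, 5 of 7 interferon genes were lower (median -1.29), and on other chromosomes 35 of 89 (median -0.9). Without the window 40 of 96 interferon genes were lower and their median was -0.92. The part of position near Mlxip in these differences was not tested. Ratios also moved slightly with gene length, from a median of 0.06 among the 1035 shortest genes to -0.12 among the 1033 longest. With that trend removed Mlxip was at -0.30 and the interferon median at -0.94.

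Markers of other cell types were read beside these results. B cell markers were at 492 CPM in sum in wild type and 755 in knockout, with 13 of 14 ratios positive and a median of 0.63. Of these markers 2 were higher (Blk and Fcmr), beside 1.48% of all genes. Of the erythroid and platelet markers 4 of 5 compared were lower, all hemoglobin genes, beside 1.53% of all genes. That list summed to 100 and 19.6 CPM. Neutrophil markers summed to 299 and 232 CPM, myeloid markers to 200 and 202, and CD8 T cell markers to 33.0 and 22.9, with Cd8a lower at 77 and 38 counts (-1.08) and 1 of 2 past 2-fold. No natural killer marker reached 50 counts. T cell markers summed to 4707 and 5410 CPM, with Cd4 at 1118 and 1254. Genes of the early and heat shock response to handling had 0 of 14 past 2-fold (median -0.08). The part of these cells in the lower interferon genes and the other results was not tested.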

How the data were processed

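Total RNA extracted in Trizol was sequenced in 6 libraries, 1 per group, and groups were taken from the labels. The deposited expected counts are, per the file headers, estimated numbers of reads per gene and are not normalised. The deposited FPKM values are scaled by the authors to transcript length and library size, and were used for alternatives. Bowtie2, HISAT and mm9 are named in the submitters' processing notes. In the sources used here the quantifier, annotation and strandedness are not given.

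The expected counts were first rounded (76.0% were whole within 0.005), and a gene missing from a file was set to 0. Totals were 9774183 (wild type) and 9953513 (knockout) in resting cells and 9760285 to 10185664 over all 6 libraries, so that 50 counts are 4.98 and 4.76 CPM. Identifiers were joined to symbols with a RefSeq table on GRCm38 (17711 of 17759 matched), and the others kept their number. TMM factors, from edgeR 4.0.16 in R 4.3.3, were 1.03 and 1.06. Each ratio has an exact conditional 95% interval (Clopper-Pearson), and a count of 0 was set to a floor of 3 counts per library. Reads have no molecular identifiers, so intervals cover counting error only. Intervals were tested on simulated data. No p-value was computed. Nothing in the labels says that samples came from separate animals. Alternatives were library totals, median-of-ratios factors (DESeq2 1.42.0), FPKM, a prior count, a length trend, other minimums and thresholds. Calculations used Python 3.11.15, numpy 2.4.6, scipy 1.17.1, pandas 2.3.3, statsmodels 0.14.6 and matplotlib 3.10.9.

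The rule for named genes took Mlxip, Txnip, Arrdc4, Foxp3, the 25 largest differences each way by the interval bound nearest 0, the 10 largest each way with at least 1000 counts, and list members past 2-fold with up to 6 others. All members of the MondoA target, MLX network and core Treg lists could be named. Predicted genes, antigen receptor segments and sex-linked genes were left out of the ranked parts. Genes named beyond the rule, such as Gm15441, the copies with their parents, genes near Mlxip and list members near 0, were picked after their values were seen. The members, the 43 lists and the rule were chosen with earlier results of these data known, and 3 of the lists were added after seeing values. Not every gene covered by the rule is described: members past 2-fold are counted with their list and a choice of them is named, and some ranked genes are not reported here.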

Additional observations from a re-analysis of the deposited data

Results flagged for a closer look

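With 1 library per group no difference between cell states could be tested. Genes named in the report that were at least 2-fold apart in opposite directions in the resting pair and in another pair are given as values. Gzmb, granzyme B, was at a log2 ratio of -1.19 in resting and 1.21 in iTreg cells. Lad1, an anchoring filament protein of epithelia, was at 1.6 in resting and -1.16 in iTreg cells. Ly6c1, a surface antigen in the interferon lists, was at -1.17 in resting, 1.43 in stimulated and 1.24 in iTreg cells. The differences between states were not tested.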

How the results depend on the processing

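No direction reversed under any alternative for the 110 gene log2 ratios or for the interferon median. Most of these genes were named for being past 2-fold, so a reversal was unlikely from the start. Sizes were less stable: on log2(FPKM + 1), 30 gene results moved and 80 did not. There Zan went from 5.98 to 1.86, Msi1 from 5.91 to 2.25, Il12rb2 from -2.36 to -1.28 and Acacb from 2.67 to 0.88. The log2 ratios of Mlxip (-0.30 to -0.41) and Txnip (-1.84 to -1.91) and the interferon median (-0.82 to -0.94) stayed within their counting error or spread. Of 40 list medians 5 took either sign, none of them among the 15 past 0.25. The counts of higher and lower genes, 153 and 158, depended on the threshold and the minimum, by construction. They were 82 and 77 on log2(FPKM + 1), 248 and 274 with at least 20 counts, 59 and 88 with at least 200 counts, 1220 and 1475 with no minimum, 492 and 505 at 1.5-fold, and 50 and 74 where the interval had to lie wholly beyond 2-fold. Between 38 and 46 of the 103 interferon genes were lower under the scalings tried. Lower genes were 50.8% of the calls and 45.3 to 51.5% under other scalings. No paired analysis was possible because each group has 1 library and the labels give no replicate numbers.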

Other observations

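Cell survival genes, not described above, had 0 of 11 past 2-fold and a median log2 ratio of 0.13, with the anti-apoptotic Bcl2 and Bcl2l1 at -0.49 and -0.59 and the pro-apoptotic Bid and Bad at 0.60 and 0.50. Genes of PI3K and mTOR nutrient sensing had 0 of 17 past 2-fold and a median of 0.00, with Pik3ip1, an inhibitor of PI3K, at -0.70 and the arginine sensor Castor1 at 0.73. Ribosomal protein genes had 1 higher of 77 and a median of -0.22.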
